A study of Mus musculus with 90 samples.

Results

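Aquaporins are membrane channels that pass water, and some of them glycerol. RNA for 6 mouse aquaporin genes (Aqp1, Aqp3, Aqp7, Aqp8, Aqp9 and Aqp11) was followed through 54 liver libraries of single mice, beside glycerol kinase (Gk), the enzyme that phosphorylates glycerol after its entry. The 6 genes were picked by symbol out of 24312 gene symbols, which stand for 35707 RefSeq IDs. Where a symbol had several IDs, the ID with the highest mean RPKM (read number corrected for how long the transcript is and how deep the library) over the 54 libraries was taken. This choice used the measured levels, so the mean levels below are a description. For Aqp9 the chosen ID, NM_022026, averaged 117 RPKM and the others 111 and 106. For Aqp8 the chosen NM_007474 and NM_001109045 both averaged 11.9 RPKM, and the other members had 1 ID each.

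The study asked how feeding, glucocorticoid signalling through the glucocorticoid receptor (GR) and insulin signalling through FOXO1 set liver gene expression at night. Mice of a C57BL/6 background were trained to night-restricted feeding (NRF) for 4 days, with food given at ZT12, when the lights went off. Livers of uninjected 10-week-old wild-type males were taken at ZT10 before food, at ZT14 without food (ZT14-unfed) or at ZT14 after 2 h of food (ZT14-fed), with 2 mice per group. Wild-type mice of 10 weeks of age were injected before ZT12 with vehicle, dexamethasone (dex, a GR agonist, 1 mg/kg), S961 (an insulin receptor antagonist), or both, and were fed until ZT14, with 4 mice per group and 4 unfed mice given vehicle. In the L-GRKO experiment, Nr3c1 (fl/fl) mice received AAV-CRE driven by the hepatocyte promoter Tbg (L-GRKO) or AAV-GFP (GRfl AAV-GFP), and the livers of 4 mice per group were taken unfed at ZT14. All mice of that experiment therefore carried the floxed Nr3c1 allele and a virus. In the L-IRSdKO experiment, Irs1 (fl/fl), Irs2 (fl/fl) mice with Alb-Cre (L-IRSdKO) or without it (IRSfl) were all given dex at 1 mg/kg and fed, with 4 mice per group at 10 weeks of age. Both Cre drivers act in hepatocytes, and whether other liver cells kept the floxed genes was not tested. In the obesity experiment, wild-type males had 10 weeks of high-fat diet (obese) or chow (lean) from 5 weeks of age, and 3 mice per group were taken unfed or fed at ZT14. All 8 libraries of the L-IRSdKO experiment and all those of the injected, L-GRKO and obesity mice were poly(A)-enriched, and those of uninjected NRF mice were depleted of ribosomal RNA. Levels were therefore compared only within an experiment.

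Glycerol set free from fat in the fasted state is taken up by hepatocytes through Aqp9, phosphorylated by Gk and oxidised to a triose phosphate, which feeds glucose production. Aqp3 and Aqp7 also pass glycerol and are known mainly from epithelia and from adipose tissue. Aqp8 is a water channel of hepatocytes linked to bile formation and also found in mitochondria, Aqp1 is the water channel of endothelium, red cells and bile ducts, and Aqp11 is an intracellular member of the family.

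The files gave no read totals, but the smallest steps between values gave the counted reads per library. In units of 1e6 these were 3.63 to 4.47 in the L-IRSdKO experiment, 6.51 to 13.5 in the injected mice and 15.2 to 62.4 elsewhere. The paper lists more reads than these estimates for every library of the L-IRSdKO experiment. Its totals were much closer to the estimates for the L-GRKO and obesity libraries it lists, and why was not tested. In the L-IRSdKO libraries the highest value of any gene was 674 to 914 RPKM, against 18853 to 60597 in the other experiments, and the reason is not given in the sources used here. The targeted Nr3c1 (GR) was at 3.93, 4.23, 4.14 and 5.35 RPKM in L-GRKO and at 12.8, 14.5, 13.2 and 16.2 in its controls. Irs1 was at 0.149, 0.155, 0.321 and 0.17 RPKM in L-IRSdKO and at 2.21, 4.7, 4.73 and 4.5 in IRSfl. Irs2 overlapped between these groups, at 0.272, 1, 0.932 and 0.886 RPKM in L-IRSdKO and 0.614, 1.63, 5.61 and 0.929 in IRSfl. All 6 hepatocyte markers were at 0.5 RPKM or more in every library, while the 5 cholangiocyte markers together summed to 1.03 to 6.53 RPKM.

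Aqp9, the glycerol channel of hepatocytes, was the most abundant member. Its level averaged 117 RPKM and ran from 65.4 to 202 over the 54 libraries, and 98.2% of gene symbols had a lower mean. The gene lies on the minus strand of chromosome 9 (mm9, chr9:70958466-71016489, GENCODE), and distances here are counted from the start of transcript Aqp9-001 at 71011096. Within 50 kb of that start lay 8 GR peaks and 6 FOXO1 peaks from livers of unfed mice at ZT14, and 11 DNase hypersensitive sites (DHSs). Of the 8 GR peaks, 5 overlapped a FOXO1 peak by at least 1 base. Among 18189 genes the median count was 0 for both factors, 0.429% had 8 or more GR peaks and 0.715% had 6 or more FOXO1 peaks within 50 kb. Within 20 kb Aqp9 had 5 GR and 2 FOXO1 peaks, and 0.484% and 6.31% of genes had at least as many. Within 100 kb it had 8 and 6, and 2.14% and 3.32% of genes had at least as many. The peak nearest the start was centred 217 bases before it, in the UTR of another Aqp9 transcript, and overlapped a FOXO1 peak and a DHS. A pair of GR peaks deep in an Aqp9 intron, 29908 and 31269 bases into the gene, each overlapped a FOXO1 peak and a DHS, and they are shown because each held the letters of the FOXO core. They are 180 bases each, on the plus strand of mm9, with capitals marking the GR half-site TGTTCT (or AGAACA) and the FOXO core TNTTTAC (or GTAAANA), both searched on both strands. The core letters were chosen after these sequences had been seen.
Aqp9 GR peak, chr9:70981099-70981278: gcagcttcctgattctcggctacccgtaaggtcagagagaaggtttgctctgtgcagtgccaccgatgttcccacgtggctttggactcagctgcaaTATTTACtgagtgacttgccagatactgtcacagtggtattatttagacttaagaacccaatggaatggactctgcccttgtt
Aqp9 GR peak, chr9:70979738-70979917: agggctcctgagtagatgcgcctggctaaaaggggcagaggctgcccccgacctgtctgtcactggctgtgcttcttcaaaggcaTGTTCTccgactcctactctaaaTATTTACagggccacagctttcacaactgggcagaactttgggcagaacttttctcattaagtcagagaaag
The first holds 1 FOXO core, and the second holds 1 half-site and 1 core. GR peaks centred 12699 and 217 bases before the start and 25351 into the gene overlapped a FOXO1 peak and held no core. The GR peak 3993 bases before the start held a core but overlapped no FOXO1 peak. A half-site was present in 27.7% of the 10446 GR peaks, 14.3% of the 83592 DHSs and 19% of RefSeq promoters, so its letters are common. Median lengths were 180 bases for peaks of either factor, 168 for DHSs and 300 for promoters, so these shares are not matched for length. The core was present in 15.8% of GR peaks, 28% of the 8546 FOXO1 peaks, 11.2% of DHSs and 12.4% of promoters.

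Aqp3 and Aqp7, the other glycerol channels, were nearly absent from these livers. Aqp3 (chr4:41039755-41045216, minus strand) was listed at 0 RPKM in 39 of 54 libraries and reached 0.311 at most. Aqp7 (chr4:40980107-40995172, minus strand) was at 0 in 34 of 54 and reached 0.122 RPKM. The highest Aqp3 value, in L-IRSdKO replicate 1, stands for about 2 reads at 0.155 RPKM per read. Neither gene passed the filter of a mean of 0.5 RPKM in any experiment, so they were not tested. No site of either factor lay within 100 kb of their starts. Of 18189 genes, 50.1% had 1 or more GR peaks and 51.4% had 1 or more FOXO1 peaks within that distance, so such an absence is common. Of the 5 adipocyte markers, Adipoq, Plin1, Lep and Retn were never above 0.577, 0.147, 0.084 and 0.863 RPKM in any library, while Cfd reached 27.5 RPKM in obese unfed replicate 2, where Aqp7 was at 0.056 RPKM.

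Aqp8 (chr7:130605808-130611517, plus strand) averaged 11.9 RPKM and ranged from 0 to 42.6. It had no GR peak within 100 kb, and its only FOXO1 peak within that distance was centred 32385 bases before the start, in an intron of Lcmt1. A DHS of 168 bases covered its start, and the 124 bases of it before the first exon are shown because it is the accessible region at the start of the member called in most comparisons.
Aqp8 start-site DHS, mm9 plus strand, chr7:130605684-130605807: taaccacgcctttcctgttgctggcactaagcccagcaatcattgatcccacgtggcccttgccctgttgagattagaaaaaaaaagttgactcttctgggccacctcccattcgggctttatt
No letters are in capitals because it holds neither a half-site, a core, nor the GR palindrome GNACANNNTGTNC.

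Aqp1 (chr6:55286426-55298549, plus strand) averaged 29.6 RPKM, from 14.8 to 77.3, and had 8 DHSs within 50 kb and 0 peaks of either factor out to 100 kb. Aqp11 (chr7:104874889-104886757, minus strand) averaged 24.1 RPKM, from 7.59 to 58.6, and had 3 GR peaks, 1 FOXO1 peak and 13 DHSs within 50 kb. The GR peak centred 10120 bases before its start is the only one near a member that held the full palindrome, in capitals below with 1 further half-site. The palindrome overlaps a half-site.
Aqp11 GR peak, mm9 plus strand, chr7:104896788-104896967: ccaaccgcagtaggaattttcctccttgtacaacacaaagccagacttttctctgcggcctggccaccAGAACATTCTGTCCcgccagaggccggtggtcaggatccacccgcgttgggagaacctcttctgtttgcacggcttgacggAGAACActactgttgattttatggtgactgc
That palindrome was present in 7.8% of GR peaks, 3.25% of FOXO1 peaks and 0.561% of DHSs. Glycerol kinase (Gk, on the X chromosome) averaged 26.2 RPKM and had 1 GR peak, 5342 bases into the gene.

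**Figure D1:**
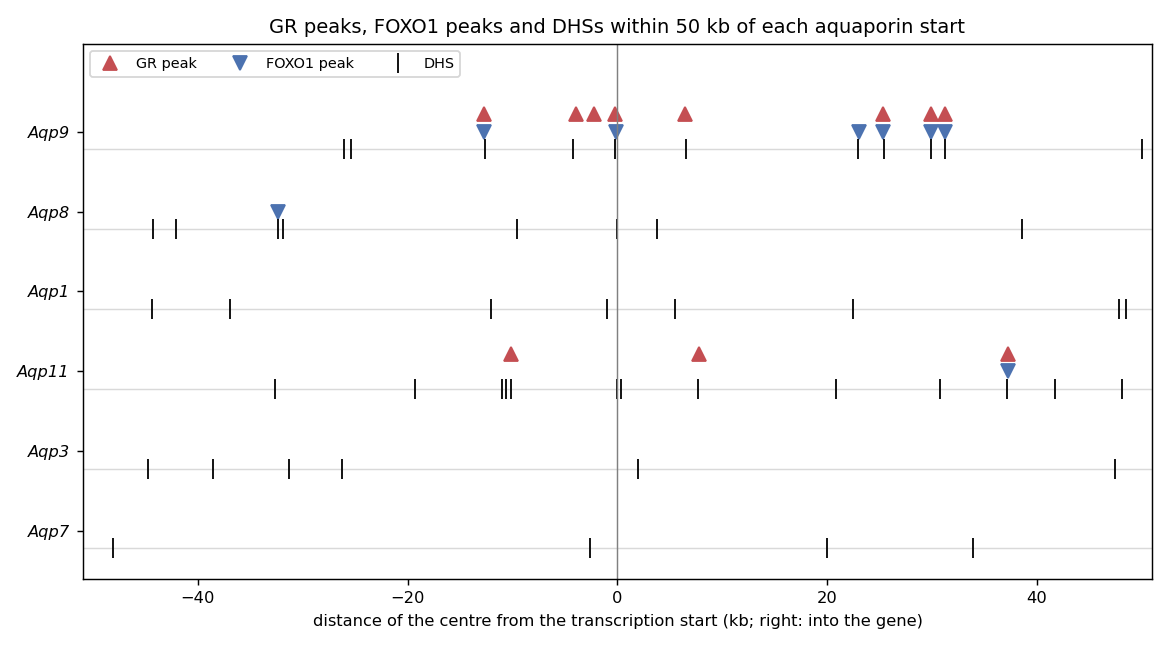
Positions of GR peaks (red), FOXO1 peaks (blue) and DHSs (ticks) within 50 kb of each member's transcription start, with distance in kb on the horizontal axis and the gene's own direction to the right. The 8 GR peaks and 6 FOXO1 peaks of Aqp9 stand against 3 and 1 for Aqp11, 0 and 1 for Aqp8, and 0 for Aqp1, Aqp3 and Aqp7.

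Pooled over all 54 libraries, the order of mean levels was Aqp9, Aqp1, Aqp11, Aqp8, Aqp3 and Aqp7, and below Aqp9 it was not the same in every experiment. In the obesity experiment Aqp8, Aqp11 and Aqp1 averaged 23.6, 23.1 and 21.9 RPKM, in the reverse of the pooled order. Aqp3 averaged more than Aqp7 only in the L-IRSdKO experiment (0.164 against 0.0245 RPKM) and the obesity experiment (0.0121 against 0.00758). Aqp9 had the highest mean of the family in each of the 5 experiments, and was below Aqp1 in 1 library, L-IRSdKO replicate 1 (68.7 against 72.6 RPKM). Aqp1 and Aqp11 overlapped in range, and so did Aqp11 and Aqp8. Of the other aquaporins, Aqp4 averaged 1.26 RPKM, Mip, Aqp5 and Aqp12 averaged 0.0206 RPKM or less, and Aqp2 and Aqp6 were listed at 0 in all 54 libraries.

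**Figure D2:**
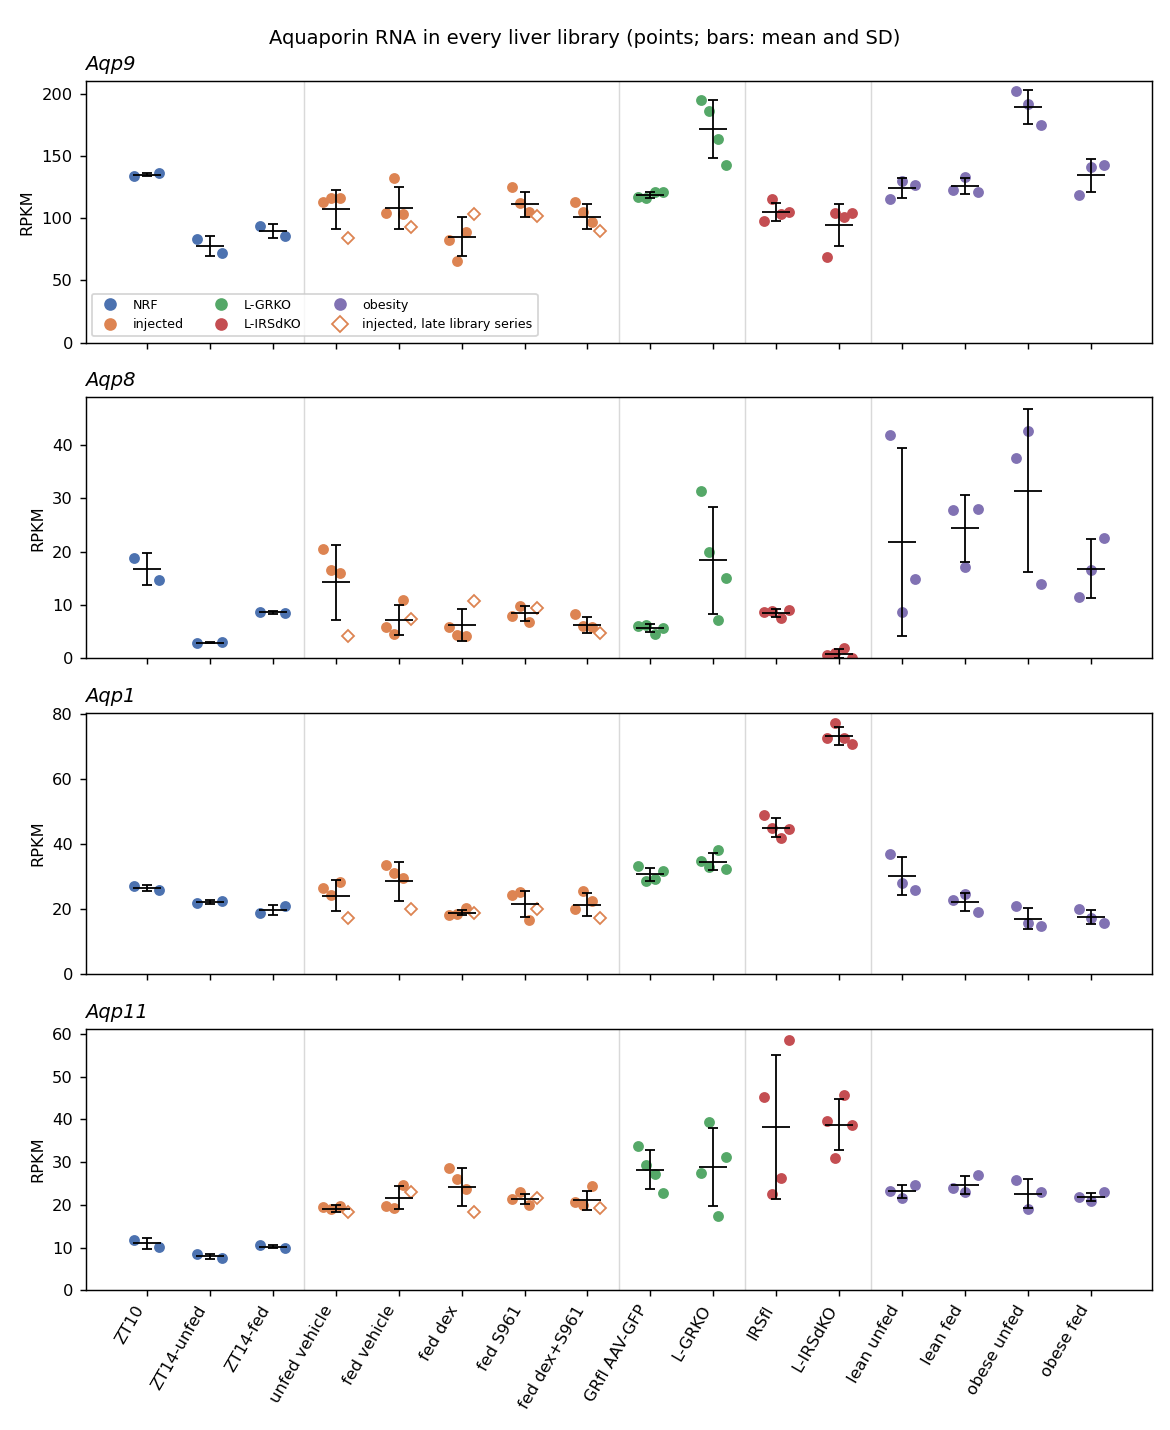
RPKM of the 4 measurable aquaporins (vertical axes) in every library, by group, with horizontal bars at the mean and whiskers of 1 SD. Open diamonds are the injected mice of the later library numbers. Aqp8 is at 2.98 and 3.01 RPKM in ZT14-unfed and at 0 to 1.99 in L-IRSdKO, and Aqp9 is at 175 to 202 in obese unfed mice.

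Each experiment was then fitted with limma on log2(RPKM + 0.5) over all genes that averaged at least 0.5 RPKM, and p-values were adjusted by Benjamini-Hochberg over all of them. The called threshold was an adjusted p under 0.01 for the NRF and obesity experiments and under 0.05 for the others, cutoffs that the study used for a comparison within each experiment. For obese mice it also used 0.05, so the member counts of the obesity comparisons are given at both. Calls of listed genes and markers there are at 0.01 only. Of the 6 members, 4 passed the filter in every experiment (Aqp1, Aqp8, Aqp9 and Aqp11). A difference on this scale understates the change of genes at low RPKM. The members had been chosen with earlier results of these data known, and the p-values do not take that into account. In whole liver, fewer cells of a type and less RNA per cell cannot be told apart.

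In the uninjected NRF mice, Aqp8 fell from ZT10 to ZT14 in both unfed and fed mice and was higher in the fed than in the unfed, and Aqp9 fell from ZT10 to ZT14-unfed. From ZT10 to ZT14-unfed, 2 of the 4 tested members fell and 0 rose, where 1.17% of the 11003 genes tested were called. From ZT14-unfed to ZT14-fed 1 of 4 rose, with 1.00% of all genes called, and from ZT10 to ZT14-fed 1 of 4 fell, with 1.69% called. The 3 comparisons share their groups. The median over all genes from ZT14-unfed to ZT14-fed was 0.12 on the log2 scale.

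Aqp9 stood at 134 and 136 RPKM at ZT10, at 83.3 and 72 at ZT14-unfed, and at 93.7 and 85.6 at ZT14-fed. Both ZT14 groups were below ZT10 and did not overlap it. The fall to ZT14-unfed was 0.80 on the log2 scale (difference -0.80, SE 0.10, adjusted p 0.0091 by limma), or 42.5% (percent change -42.5). This call held in 1 of the 6 fits that left out a library and was lost in the others, with adjusted p of 0.048 without ZT10 replicate 1, 0.049 without ZT10 replicate 2, 0.029 without ZT14-unfed replicate 2 or ZT14-fed replicate 1, and 0.028 without ZT14-fed replicate 2. From ZT10 to ZT14-fed the difference was -0.59 (SE 0.10, adjusted p 0.019) and missed the threshold. Between ZT14-unfed and ZT14-fed it was 0.21 with a 95% interval of -0.03 to 0.45.

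Aqp8 stood at 18.9 and 14.7 RPKM at ZT10, at 2.98 and 3.01 at ZT14-unfed, and at 8.8 and 8.49 at ZT14-fed. The 3 groups did not overlap, with the unfed mice lowest. From ZT10 to ZT14-unfed it fell by 2.30 on the log2 scale (SE 0.13, adjusted p 0.0011), to 0.178 of the ZT10 mean, and this call held in all 6 fits without a library. In ZT14-fed it was 2.89-fold above ZT14-unfed (log2 difference 1.39, SE 0.13, adjusted p 0.0031). That call was lost without ZT14-unfed replicate 2 (adjusted p just over 0.01), ZT14-fed replicate 1 (0.037) or ZT14-fed replicate 2 (0.049), with differences of 1.36 to 1.41. From ZT10 to ZT14-fed it fell by 0.91 (SE 0.13, adjusted p 0.0099), a call at the edge of the threshold that held only without ZT14-unfed replicate 2. Without ZT10 replicate 1 or 2 the adjusted p was 0.03 or 0.023, without ZT14-fed replicate 1 or 2 it was 0.061 or 0.093, and without ZT14-unfed replicate 1 it was just over 0.01.

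Aqp1 stood at 27.3 and 26 RPKM at ZT10, 21.9 and 22.7 at ZT14-unfed and 18.8 and 20.9 at ZT14-fed, and none of its differences passed the threshold. From ZT10 to ZT14-fed the difference was -0.42 with an interval of -0.64 to -0.20 (adjusted p 0.039). The 7 endothelial markers summed to 62.7 to 68.4 RPKM at ZT10, 67.1 to 72.6 at ZT14-unfed and 57.6 to 64.2 at ZT14-fed. Aqp11 ran from 7.59 to 11.8 RPKM, and its largest difference, from ZT10 to ZT14-unfed, was -0.43 (interval -0.69 to -0.16, adjusted p 0.062).

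Glycerol-handling genes were listed as a group of 18, of which 15 were tested in these mice. G6pc, which releases glucose in the last step of glucose production, rose from ZT10 to ZT14-unfed by 2.54 on the log2 scale (43.3 to 252 RPKM, adjusted p 0.00053), and it was the 1 gene of the list called there. On feeding, G6pc fell by 3.02 and Pck1, the enzyme that commits pyruvate carbon to glucose production, fell by 2.21, while 13 were not called. From ZT10 to ZT14-fed only Pck1 was called, and fell by 1.93. Gk was at 22.9 and 20.4 RPKM at ZT10, 21.3 and 22 at ZT14-unfed and 21.3 and 19.6 at ZT14-fed, and its difference on feeding was -0.08 with an interval of -0.32 to 0.16. None of the 8 bile transport genes tested was called in the 3 comparisons.

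In the injected mice, no aquaporin passed the threshold in any of the 5 comparisons by limma with all 20 libraries and group as the only term. With a term for the library series Aqp1 passed for dex (adjusted p 0.015) and dex+S961 (0.045), and with the replicate block it passed for dex (0.023). The share of all genes called was 3.12% from unfed to fed with vehicle, 3.19% for dex, 1.92% for S961, 10.6% for dex+S961 and 0.00% for the interaction of dex with S961, over 11353 genes. At an unadjusted p under 0.05 by limma the 4 tested members gave 1, 2, 1, 1 and 1 differences in that order. Of the 11353 genes, 2189, 2104, 1616, 2923 and 515 passed that mark in the same order. The dex, S961 and dex+S961 comparisons share the fed vehicle group. The fourth mouse of each group belongs to a later run of library numbers in the labels. The median over all genes was -0.14 for dex+S961 and at most 0.10 in size for the others.

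Aqp9 was at 113, 116, 116 and 83.8 RPKM in unfed vehicle mice and at 104, 132, 103 and 92.9 in fed vehicle mice, with the lowest value of each in the later series. The difference was 0.01 with an interval of -0.29 to 0.31. With dex it was at 82.5, 65.4, 89.2 and 103 RPKM, a difference of -0.35 from fed vehicle (interval -0.64 to -0.05, adjusted p 0.19). The 3 dex mice of the early series lay below every fed vehicle mouse and the late one did not, and within the early series alone the difference was -0.51 with adjusted p 0.023. With S961 (125, 112, 105 and 102 RPKM) and dex+S961 (113, 105, 97.3 and 89.4 RPKM) the groups overlapped fed vehicle, and the differences were 0.05 (interval -0.25 to 0.34) and -0.09 (interval -0.38 to 0.21).

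Aqp8 was at 20.5, 16.5, 16 and 4.21 RPKM in unfed vehicle mice and at 5.83, 4.61, 10.9 and 7.49 in fed vehicle mice. The early unfed mice lay above every fed mouse, and the late unfed mouse lay below all of them. The difference on feeding was -0.81 over all mice (interval -1.59 to -0.03, adjusted p 0.24). It was -1.33 within the early series (adjusted p 0.0094) and -1.29 without unfed vehicle replicate 4 (adjusted p 0.019), both past the threshold. In the uninjected NRF mice the same step gave 1.39, in the opposite direction, and the difference between the 2 experiments, which differ in injection and in RNA selection, was not tested. With dex Aqp8 was at 5.98, 4.37, 4.25 and 10.7 RPKM, with S961 at 7.88, 9.86, 6.75 and 9.43, and with both at 8.41, 6.08, 5.94 and 4.86. All of these overlapped fed vehicle, with differences of -0.20 (interval -0.98 to 0.58), 0.27 (interval -0.51 to 1.05) and -0.14 (interval -0.92 to 0.65).

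Aqp1 was at 33.6, 31.3, 29.6 and 20.1 RPKM in fed vehicle mice and at 18.2, 18.7, 20.3 and 18.9 with dex. The 3 early vehicle mice lay above all dex mice, while the late one fell inside their range. The difference was -0.55 (SE 0.17, interval -0.92 to -0.19, adjusted p 0.085). It passed the threshold within the early series (-0.71, adjusted p 0.0074), with a term for the library series (-0.55, adjusted p 0.015), with the replicate block (-0.55, adjusted p 0.023) and without fed vehicle replicate 4 (-0.71, adjusted p 0.023). With S961 Aqp1 was at 24.4, 25.4, 16.8 and 20.1 RPKM (difference -0.39, interval -0.75 to -0.02, adjusted p 0.32). With dex+S961 it was at 20.1, 25.7, 22.6 and 17.5 RPKM (difference -0.39, adjusted p 0.16), and that difference was called without fed vehicle replicate 4 (-0.55, adjusted p 0.041). The endothelial markers summed to 85.5 to 97.5 RPKM in fed vehicle and 67.3 to 87.9 with dex, where Kdr and Clec4g of the 7 fell, by 0.82 and 0.47. The 5 Kupffer markers, of the liver's resident macrophages, summed to 44.6 to 70 RPKM and 31.4 to 48.7 in those groups. The part of either cell type in the Aqp1 values was not tested.

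Aqp11 stayed within 18.2 to 28.5 RPKM in the injected mice, and its differences on feeding and for the 3 treatments ran from -0.04 to 0.17. Of the 15 glycerol-handling genes tested, G6pc and Pck1 fell on feeding, by 1.60 and 1.02. With dex only Gpd2, the mitochondrial glycerol-3-phosphate dehydrogenase, was called, and fell by 0.61 (8.49 to 5.41 RPKM). With S961 G6pc rose by 1.80 and Tkfc, which phosphorylates dihydroxyacetone and glyceraldehyde, by 0.49. With dex+S961 G6pc rose by 1.10 and Pnpla2, the first lipase of triglyceride breakdown, by 0.95. Gk was not called, and its difference was 0.05 on feeding (interval -0.44 to 0.55) and -0.26 for dex (interval -0.75 to 0.24). Of 8 bile transport genes, Abcg2 fell with dex by 0.65 and Abcb11, the bile salt export pump, fell with dex+S961 by 0.56.

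In L-GRKO livers, Aqp8 and Aqp9 rose, and Aqp1 and Aqp11 did not pass the test. That is 2 of the 4 tested members, against 6.68% of 11763 genes called in either direction, and 524 of all genes rose. Aqp9 was at 195, 186, 164 and 143 RPKM in L-GRKO and at 117, 116, 121 and 121 in GRfl AAV-GFP mice. All 4 knockout mice lay above all controls, and they spread more widely. It rose 1.45-fold (log2 difference 0.52, SE 0.10, adjusted p 0.015), and 7 of 8 fits without a library kept the call, which missed without L-GRKO replicate 2 (0.48, adjusted p 0.057). Aqp8 was at 31.3, 20, 7.18 and 15 RPKM in L-GRKO and at 6.18, 6.35, 4.55 and 5.74 in controls. The groups did not overlap, although the third knockout mouse was close to the controls. It rose 3.22-fold (log2 difference 1.44, SE 0.34, adjusted p 0.031). This call was lost in 6 of 8 fits without a library, which were those without any of the 4 controls (adjusted p 0.055 to 0.082), without L-GRKO replicate 1 (1.13, adjusted p 0.059) and without L-GRKO replicate 2 (1.34, adjusted p 0.09). The difference was 1.13 to 1.81 over all alternatives. Of the 6 hepatocyte markers, Cps1 and Tat fell by 0.90 and 1.03, and 4 were not called. The 6 together summed to 33266 to 44409 RPKM in L-GRKO and 31768 to 45775 in controls, which overlap.

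Aqp1 was at 34.8, 33.2, 38.3 and 32.5 RPKM in L-GRKO and 33.3, 28.8, 29.4 and 31.7 in controls, with a difference of 0.17 (interval -0.03 to 0.37). Aqp11 was at 27.5, 39.4, 17.3 and 31.1 RPKM against 33.8, 29.2, 27.2 and 22.8, with a difference of -0.02 (interval -0.49 to 0.46). Red-cell markers moved in the same samples. Hba-a1, Hbb-b1 and Alas2, the 3 of 5 erythroid markers tested, rose by 0.98, 0.93 and 0.54, and the 5 erythroid markers summed to 331 to 623 RPKM in L-GRKO and 223 to 289 in controls. Mouse red cells are known to carry both Aqp1 and Aqp9, and the part of the erythroid RNA in the Aqp9 difference was not tested. Among glycerol-handling genes, Gk rose 1.41-fold, from 20.3 to 28.6 RPKM (log2 difference 0.48, SE 0.11, adjusted p 0.025), and its groups did not overlap, at 25.8, 31.7, 30.5 and 26.2 RPKM against 23.7, 18.9, 18.9 and 19.7. Gpd1l, a paralog of the cytosolic glycerol-3-phosphate dehydrogenase, rose by 0.48 and Pck1 fell by 0.73, and the other 12 tested were not called. Abcg2 rose by 0.80 and the other 7 bile transport genes were not called.

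**Figure D3:**
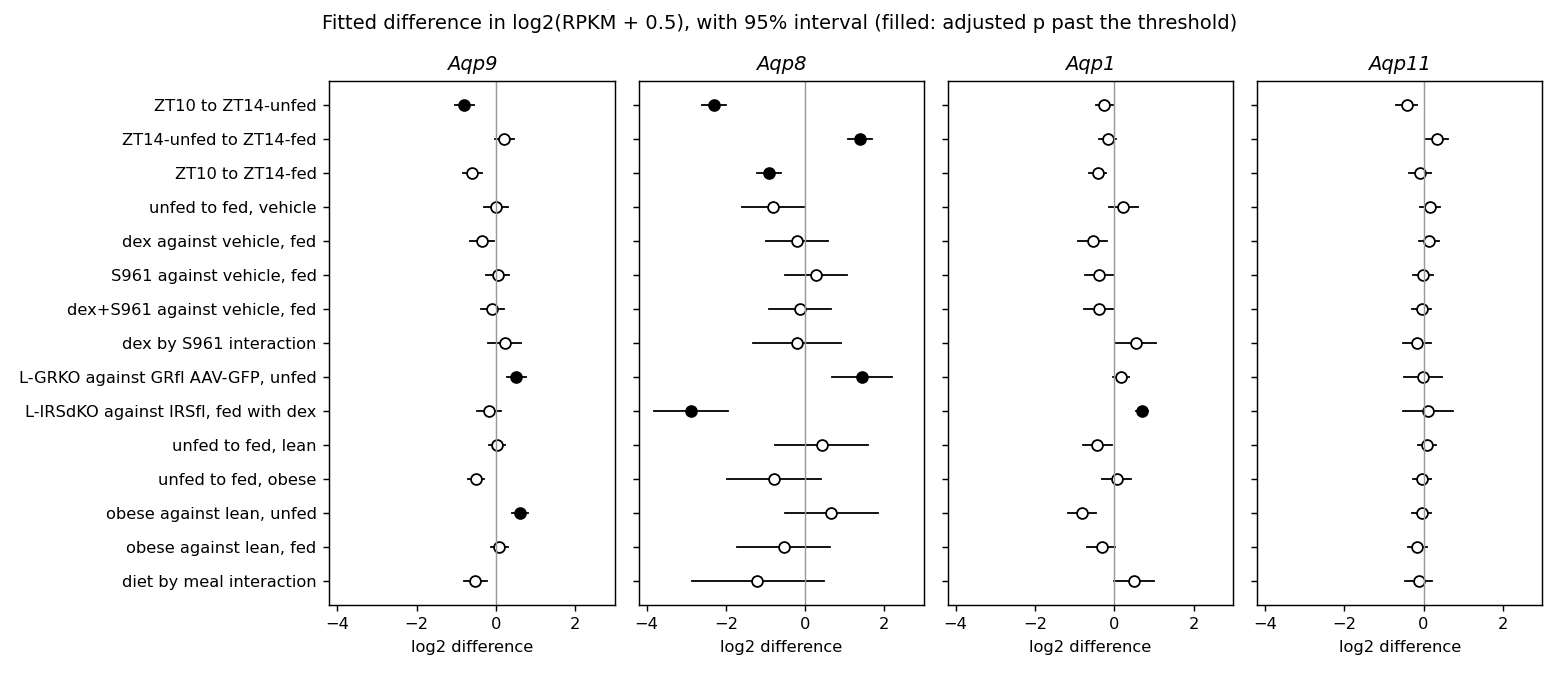
Fitted differences in log2(RPKM + 0.5) (horizontal axes) with 95% intervals for 4 aquaporins in the 15 comparisons, where filled points passed the adjusted p threshold. Aqp8 runs from -2.88 in L-IRSdKO to 1.44 in L-GRKO, and no point of Aqp11 is filled.

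In L-IRSdKO livers of fed mice given dex, Aqp8 fell and Aqp1 rose, and Aqp9 and Aqp11 did not pass the test. The 2 called members of 4 stand beside 17.4% of 13083 genes called. Aqp8 was at 8.7, 8.82, 7.51 and 9.07 RPKM in IRSfl and at 0.737, 0.959, 1.99 and 0 in L-IRSdKO. These stand for about 47, 50, 41 and 54 reads against 4, 6, 11 and 0, and 0 reads in the fourth knockout library allow up to 0.451 RPKM (3 reads, counting error only). The groups did not overlap by a wide margin. Aqp8 fell by 2.88 on the log2 scale (SE 0.41, adjusted p 0.0043), to 0.108 of the control mean, and the call held in all 8 fits without a library. The size depended on the pseudocount because of the low values, and ran from -3.71 to -2.41 over all alternatives.

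Aqp1 was at 72.6, 77.3, 72.7 and 70.8 RPKM in L-IRSdKO and at 49.1, 45.1, 41.9 and 44.7 in IRSfl. The groups did not overlap. It rose 1.62-fold (log2 difference 0.69, SE 0.07, adjusted p 0.001), and the call held in all 8 fits without a library. Endothelial markers moved with it. Their sum was 150 to 187 RPKM in L-IRSdKO and 119 to 145 in IRSfl, and 4 of the 7 rose: Lyve1 by 1.47, Cdh5 by 0.95, Pecam1 by 0.65 and Stab2 by 0.48. Single markers of other cell types rose too. The Kupffer markers summed to 182 to 231 RPKM in L-IRSdKO and 110 to 193 in IRSfl, with Clec4f higher by 0.46, and the 4 stellate markers summed to 108 to 129 against 90 to 109, with Dcn higher by 0.28. The part of these cell types in the Aqp1 difference was not tested. The 5 cholangiocyte markers, of another cell type that holds Aqp1, summed to 1.65 to 2.95 RPKM in L-IRSdKO and 3.66 to 5.52 in IRSfl, and Krt7 fell by 1.14. The erythroid markers summed to 58.7 to 85.8 RPKM against 86.1 to 149. Of the 3 tested, Alas2 fell by 2.30 and the other 2 were not called, with a median difference of 0.01 over the 3.

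**Figure D4:**
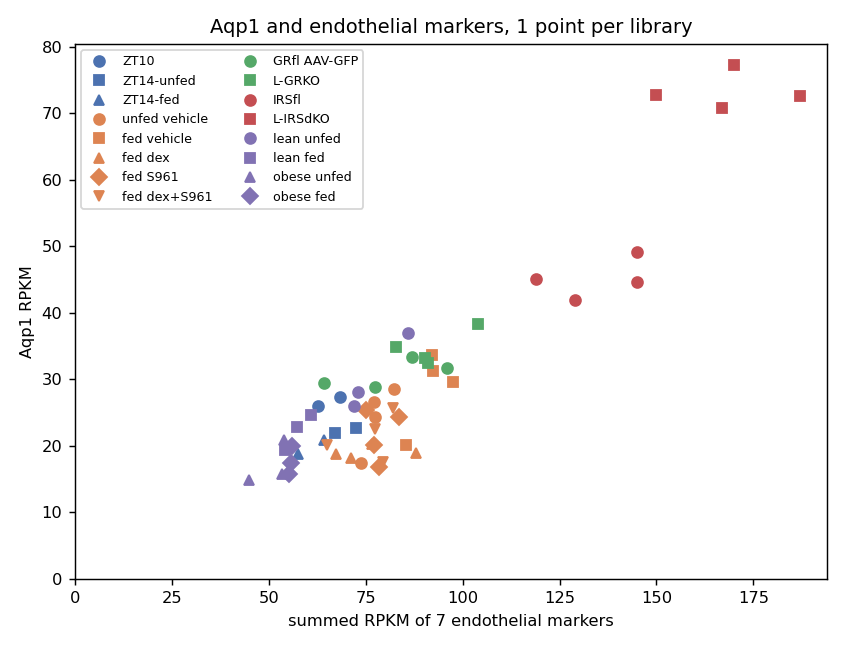
Aqp1 RPKM (vertical axis) against the summed RPKM of 7 endothelial markers (horizontal axis), with 1 point per library and the 16 groups by colour and shape. The 4 L-IRSdKO libraries sit at 70.8 to 77.3 RPKM of Aqp1 and 150 to 187 of the markers, above the 4 IRSfl libraries on both axes.

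Aqp9 was at 68.7, 104, 101 and 104 RPKM in L-IRSdKO and 97.5, 115, 103 and 105 in IRSfl. One knockout mouse was lowest and the others overlapped the controls, with a difference of -0.17 (interval -0.47 to 0.13, adjusted p 0.41). Aqp11 was at 39.7, 31, 45.6 and 38.6 RPKM against 45.1, 22.6, 26.3 and 58.6, with a difference of 0.11 (interval -0.52 to 0.75). Of the glycerol-handling list, 16 genes were tested here. Pnpla2, G6pc, Gpd2 and Fbp1 rose, by 1.33, 0.98, 0.76 and 0.21, and Abhd5, the activator of Pnpla2, and Pgp, which removes phosphate from glycerol-3-phosphate, fell by 0.82 and 0.54. Gk was at 33.8, 34.9, 41.5 and 37.1 RPKM against 27.7, 28.7, 29.2 and 34.1, and its difference of 0.29 missed the threshold (interval 0.08 to 0.51, adjusted p 0.062). Of 8 bile transport genes, the uptake carriers Slco1a1 and Slco1b2 fell by 2.28 and 0.45, the exporters Abcg2 and Abcb11 fell by 0.70 and 0.43, and the phospholipid exporter Abcb4 rose by 0.37. Of the 6 hepatocyte markers, Ttr and Serpina1c fell by 0.45 and 0.68, and 4 were not called. The 6 together summed to 2430 to 2909 RPKM in L-IRSdKO and 2648 to 2909 in IRSfl, which overlap.

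In the obesity experiment, Aqp9 was higher in obese than in lean mice before the meal, and at an adjusted p under 0.01 no other member was called. Obese against lean unfed mice gave 1 called member of 4, higher, with 0.771% of 11541 genes called. The meal gave 0 of 4 in lean mice, where 10.3% of genes were called, and 0 of 4 in obese mice, with 1.20% called. Obese against lean fed mice gave 0 of 4, with 0.00% called, and the interaction of diet and meal 0 of 4, with 0.130% called. At an unadjusted p under 0.05 by limma the last 4 comparisons gave 1, 1, 0 and 1 members. Of the 11541 genes, 4190, 2901, 2310 and 1735 passed that mark in the same order. At an adjusted p under 0.05, a threshold added after seeing the data, Aqp9 was also lower after the meal in obese mice and Aqp1 was also lower in obese than in lean unfed mice. The count was then 2 of 4 for obese against lean unfed (5.26% of all genes), 1 of 4 for the meal in obese mice (7.66%), and 0 of 4 for the meal in lean mice (23.4%), obese against lean fed mice (0.494%) and the interaction (0.745%). These comparisons share groups.

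Aqp9 was at 115, 130 and 127 RPKM in lean unfed, 123, 133 and 121 in lean fed, 202, 192 and 175 in obese unfed and 119, 141 and 143 in obese fed mice. The obese unfed mice lay above all others, and the other 3 groups overlapped. Obese unfed exceeded lean unfed 1.53-fold (log2 difference 0.61, SE 0.09, adjusted p 0.0075). The call held in 2 of 12 fits without a library, and adjusted p ran from 0.0063 to 0.0256 over them, with a difference of 0.56 to 0.67 throughout. It was lost without any 1 of the 3 lean unfed mice, any 1 of the 3 lean fed mice, obese unfed replicate 2 or 3, or obese fed replicate 2 or 3. The meal difference in obese mice was -0.50 (SE 0.09, interval -0.70 to -0.29, adjusted p 0.012), just outside the threshold, and in lean mice it was 0.02 (interval -0.18 to 0.22). The difference between those, -0.52 (SE 0.13), had an adjusted p of 0.1.

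Aqp8 was at 41.8, 8.76 and 14.9 RPKM in lean unfed, 27.9, 17.1 and 28.1 in lean fed, 37.6, 42.6 and 14 in obese unfed and 11.5, 16.5 and 22.5 in obese fed mice. All 4 groups overlapped, and the unfed mice of each diet were the most spread. Obese against lean unfed gave 0.66 (interval -0.51 to 1.84), and the meal gave 0.42 in lean (interval -0.76 to 1.59) and -0.78 in obese mice (interval -1.96 to 0.39).

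Aqp1 was at 36.9, 28.1 and 26 RPKM in lean unfed, 22.9, 24.6 and 19.3 in lean fed, 20.9, 15.7 and 14.8 in obese unfed and 20, 17.4 and 15.8 in obese fed mice. The lean unfed mice lay above all obese mice and all lean fed mice. The meal in lean mice gave -0.43 (interval -0.78 to -0.07). Obese against lean fed mice gave -0.32 (interval -0.68 to 0.03), and neither was called. Obese against lean unfed gave -0.81 (SE 0.16, interval -1.16 to -0.45, adjusted p 0.019), short of the threshold of 0.01, which it passed without obese unfed replicate 1 (-0.95, adjusted p 0.0058) and with the replicate block (-0.81, adjusted p 0.0069). The endothelial markers summed to 72 to 86 RPKM in lean unfed, 54.1 to 60.9 in lean fed, 44.8 to 54 in obese unfed and 55.3 to 56 in obese fed mice, and Clec4g fell by 0.78 in obese against lean unfed. Their part in the Aqp1 values was not tested. Aqp11 stayed within 19 to 27 RPKM, with differences of -0.16 to 0.09.

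With the meal in lean mice G6pc, Pck1 and Pnpla2 fell by 2.09, 2.55 and 0.69, and Gpd1, the cytosolic glycerol-3-phosphate dehydrogenase, and Abhd5 rose by 0.66 and 0.61, with 10 of 15 tested genes not called. Gk was at 24.9, 28.4 and 17.9 RPKM in lean unfed, 21.8, 21.5 and 22.8 in lean fed, 18.7, 43.4 and 33.2 in obese unfed and 32.1, 31.1 and 30.1 in obese fed mice. The obese fed mice lay above the lean fed mice, with a difference of 0.49 (interval -0.06 to 1.03, adjusted p 0.3). No glycerol-handling gene, Gk included, was called in the obese or interaction comparisons at an adjusted p under 0.01. Of the bile transport genes only Abcc2 was called, falling by 0.76 with the meal in lean mice.

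Genes that varied most like each member were ranked by Pearson r of log2(RPKM + 0.5), taken as the deviation from the mean of each experiment, over 54 libraries and 10521 genes. These are descriptions without a test, because libraries of an experiment share groups, depth and preparation. Among the genes closest to Aqp9 were Rassf3 (r = 0.78) and Akr1c6 (0.75). Aqp8 was followed by Apol7a (0.79), Sucnr1 (0.78), the receptor for succinate, and Echdc1 (0.74). Aqp1 was followed by Plpp1 (0.83), Ptprb (0.78), a phosphatase of endothelium, and Plxnc1 (0.77). Aqp11 had weaker neighbours, among them Ints4 (0.57) and Atad3a (0.56). Between members r was 0.53 for Aqp8 with Aqp9 and between -0.12 and 0.10 for the other pairs, and Gk gave 0.31 with Aqp9 and -0.03 with Aqp8.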

How the data were processed

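RNA-seq values of 54 liver libraries were used as RPKM, which the authors computed on RefSeq transcripts from reads aligned to mm9 with STAR. The tool, strand and duplicate handling behind the counts are not given in the sources used here, and RPKM does not correct for a few very abundant genes. The authors called GR and FOXO1 peaks with HOMER, kept those concordant between replicates, and called DHSs on combined reads. The deposited lists give positions only. All value columns were mapped to samples by name, and 0 were left unmapped. H3K27Ac data were not used here.

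The members and gene lists were chosen with earlier results of these data known. Named genes are the 6 members, Gk, list genes called in at least 2 fed against unfed comparisons or in dex, S961, L-GRKO or L-IRSdKO, the targeted genes, and the 3 genes most alike per member, of which some are not reported here. List genes called elsewhere were added after their values were seen. IDs without a symbol (300) stayed in the fits as rows of their own. For each of the 5 experiments, a separate limma model (version 3.58.1, R 4.3.3, eBayes with a variance trend) was fitted to log2(RPKM + 0.5), with genes averaging at least 0.5 RPKM. Intervals are 95% and not adjusted. Scripts were tested on simulated data. Depth was read from the smallest step between values, which is worth 1 read. Sites were counted within 50 kb of a start (20 and 100 kb as alternatives), with overlap from 1 base, on the GENCODE annotation of mm9. Promoter letters came from RefSeq (GRCm38.p6). Other settings tried were pseudocounts of 0.1 and 1, a minimum mean of 2 RPKM or none, every RefSeq ID as its own row, median-ratio scaling, quantile normalization, a replicate block, fits of the compared groups by themselves, library series as a covariate, an adjusted p under 0.05 in the obesity experiment, and fits without single libraries. Replicates are single mice, so p-values measure the spread between these mice.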

Additional observations from a re-analysis of the deposited data

Results flagged for a closer look

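The highest and lowest value of each group of 4 mice were checked for a gap to the rest, in 36 group checks of the 4 measured aquaporins, of which 2 stood out. Chance gives about 1 in 20. Aqp9 in unfed vehicle replicate 4 was 83.8 RPKM, while the other 3 mice of the group were at 113 to 116 (a gap of 0.911 of the group's range, past Dixon's 95% critical value). This mouse belongs to the later library numbers. Aqp9 in L-IRSdKO replicate 1 was 68.7 RPKM, while the others were at 101 to 104 (0.92). In that library all 5 exocrine pancreas markers were at 0.5 RPKM or more. The other L-IRSdKO libraries had 3, 1 and 1 at that level, and each IRSfl library had 1. Fed dex+S961 replicate 1 also had all 5, with Aqp9 at 113 RPKM. The part of pancreas RNA in the Aqp9 values was not tested.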

How the results depend on the processing

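None of the 9 called member differences changed sign under the alternatives run. Of 1344 alternative values, 41 changed sign, all of differences that were not called, none larger than 0.20 in size. The call counts below are of 4 tested members, and why they changed was not tested. The 2 calls in L-IRSdKO held under every alternative. ZT10 to ZT14-unfed gave 0 without a filter and with the compared groups alone, and 1 under median-ratio scaling, quantile normalization and the replicate block, and 1 to 2 without single libraries. ZT14-unfed to ZT14-fed gave 0 without a filter and 0 to 1 without single libraries. ZT10 to ZT14-fed gave 0 with a pseudocount of 1, without a filter and with the replicate block, and 0 to 1 without single libraries. L-GRKO gave 0 without a filter, 1 under median-ratio scaling and quantile normalization, and 0 to 2 without single libraries. Obese against lean unfed gave 0 without a filter, under both scalings and with the compared groups alone, and 0 to 2 without single libraries. With the replicate block the 1 call there was Aqp1 (adjusted p 0.0069) and no longer Aqp9 (0.014). At an adjusted p under 0.05, tried after seeing the data, it gave 2 and the meal in obese mice 1. Unfed to fed with vehicle gave 1 in the early library series, and 0 to 1 without single libraries. Dex gave 1 with the replicate block and with the series term, 2 in the early series, and 0 to 1 without single libraries, and dex+S961 gave 1 with the series term and in the early series, and 0 to 1 without single libraries. The early series alone was tried after seeing the data. Replicate numbers were not taken as pairing mice, since in no experiment were all correlations of same-numbered deviations over 0.1 (0 of 6 NRF pairs). In the injected mice 28 of 40 were, with a median of 0.14 against -0.05 for other pairs, and number 4 is the late library series in every group. With 2 or 3 mice per group, and few reads behind Aqp8 in L-IRSdKO, small differences were not detectable.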
